A study of Mus musculus with 24 samples.

Results

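Mammalian genomes carry methyl groups on cytosines of CpG dinucleotides. Dnmt3a and Dnmt3b add new methyl groups, Dnmt3l has no catalytic activity of its own and assists both, and Dnmt1 copies the pattern onto the daughter strand after replication, guided there by Uhrf1. The TET dioxygenases, Tet1, Tet2 and Tet3, oxidise methylated cytosine and so open a route to demethylation. In pluripotent cells grown with inhibitors of MEK and GSK3 methylation is low, and it is laid down again as cells leave that state. Neurons are known for high Dnmt3a and Tet3.

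The expression of these 8 genes was followed through neural differentiation of mouse cells with a normal or a slow RNA polymerase II. The genes were found by symbol among the 22667 genes of the expression table, from a list set with earlier results of these data known. All 8 passed the filter on low counts, which left 16627 genes for testing. Their splicing was followed in 206 events of the per-sample splicing table, made up of 43 exons, 116 introns and 47 alternative splice sites, of which 109 passed the coverage filters in all 24 samples.

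Wild-type (WT) cells were E14 mouse embryonic stem cells (ESCs) with genotype wt/wt. The slow/slow cells, Polr2a[R749H/R749H], were derived from them by replacing an arginine with histidine in both alleles of Polr2a, the gene of the largest subunit of RNA polymerase II, in successive rounds of homologous recombination. ESCs were kept in medium with leukaemia inhibitory factor and the inhibitors PD0325901 and CHIR99021, neural progenitor cells (NPCs) were collected at day 7 of differentiation, and PSA-NCAM+ cells, which carry the polysialylated neural cell adhesion molecule, were taken with antibody beads at day 10. Mature neurons had been replated at day 7 and grown for 14 further days. Each of the 8 combinations of genotype and stage had 3 replicates. The study describes ESC, NPC and neuron RNA as coming from independent differentiations, and for PSA-NCAM+ cells the sources used here do not say. Per the labels slow/slow cells were plated more densely than WT cells at the start of differentiation, so genotype and plating density cannot be told apart in NPCs, in PSA-NCAM+ cells or in neurons, which were replated from such cultures. Gene counts hold no base calls, so the substitution itself was not checked here.

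Total counts per sample ranged from 32974432 to 104466886. Libraries of the PSA-NCAM+ stage agreed less within their group than others, with a mean correlation with the rest of the group of 0.978 to 0.9863 in WT and 0.9624 to 0.9801 in slow/slow cells, against 0.9942 to 0.9969 in all ESC, NPC and neuron libraries. Replicate 1 had the lowest value in each genotype, so results for that stage are also given without replicate 1 of both. This choice removes the libraries that agreed least, which by itself lowers the estimated spread, and leaves 2 libraries per group there. Calls made that way are therefore a description and not independent support. The labels were checked against marker lists, whose levels differed between genotypes as well as between stages. The 5 naive pluripotency markers tested summed to 4010 to 4130 CPM (counts scaled to library size) in WT ESCs and 28.6 to 31.5 in WT neurons, and to 1430 to 1510 in WT NPCs against 429 to 477 in slow/slow NPCs. The 3 formative markers, genes of cells that have left the naive state, summed to 61.4 to 63.8 CPM in WT and 107 to 155 in slow/slow NPCs, and 2 neural progenitor markers to 36.9 to 38.3 and 120 to 157. The 4 neuron markers tested summed to 2200 to 2380 CPM in WT and 2170 to 2330 in slow/slow neurons, although 2 of them were called lower in slow/slow cells. In the same neurons the 2 progenitor markers summed to 247 to 296 CPM in WT and 415 to 470 in slow/slow cells. There 3 astrocyte markers summed to 30.7 to 39.3 and 9.55 to 12.2, with 1 called higher and 2 lower in slow/slow cells. That list summed to 49.0 to 57.0 in WT ESCs, so it does not single out astrocytes here. The 4 oligodendrocyte lineage markers summed to 60.8 to 80.3 in WT and 13.6 to 15.1 in slow/slow neurons, with 1 called higher, 2 lower and 1 not called. In WT PSA-NCAM+ cells the neuron markers summed to 22.6 to 35.6 CPM, beside 27.6 to 28.0 in WT NPCs and 45.3 to 57.5 in WT ESCs. The naive markers there summed to 1030 to 1470 CPM, so neither of these lists set WT PSA-NCAM+ cells apart from WT NPCs. Other lists did, without overlap. The neural progenitor markers summed to 66.8 to 99.0 CPM and the formative markers to 23.7 to 40.3 in WT PSA-NCAM+ cells, against the WT NPC values above. Slow/slow PSA-NCAM+ cells held 53.9 to 250 CPM of neuron markers and 331 to 559 of naive markers. The part of these marker levels in the results for the methylation genes was not tested. In bulk samples like these, fewer cells of a type and less RNA per cell cannot be told apart.

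3 splicing choices within the coding sequence of Dnmt3b and Dnmt1 are shown here because they were followed below, with each splice junction as it appears in the spliced transcript. Sequences were read from the GENCODE transcripts of GRCm38, and capitals mark the bases that are present in only 1 of the 2 forms. The first is a Dnmt3b exon of 60 nt, at chr2:153670849-153670908 on the plus strand (exon 10 or 11 of the transcripts that hold it), between exons of 145 and 120 nt.
Dnmt3b exon included: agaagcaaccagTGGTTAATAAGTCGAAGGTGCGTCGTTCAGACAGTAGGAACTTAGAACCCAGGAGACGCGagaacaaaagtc
Dnmt3b exon skipped: agaagcaaccagagaacaaaagtc
The others are pairs of neighbouring acceptor sites that add or drop 3 nt, in Dnmt3b at the start of an exon of 88 or 85 nt (chr2:153675726-153675813 in the longer form) and in Dnmt1 at the start of exon 5, of 79 or 76 nt (chr9:20940476-20940554 on the minus strand in the longer form).
Dnmt3b acceptor, longer form: ctggaagaatttCAGgagccacccaag
Dnmt3b acceptor, shorter form: ctggaagaatttgagccacccaag
Dnmt1 acceptor, longer form: gtgacaccctttCAGttgaaacttcac
Dnmt1 acceptor, shorter form: gtgacaccctttttgaaacttcac
All 3 choices keep the reading frame.

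The genes of the methylation machinery did not move as a block in slow/slow cells. In NPCs Dnmt3b rose 3.32-fold and Dnmt3a 2.1-fold over WT cells, and Dnmt1 and Tet3 rose by less. In ESCs Dnmt3l, Uhrf1 and Tet3 fell while Dnmt3a and Tet2 rose. PSA-NCAM+ cells had more Dnmt3b and Tet3 and less Dnmt3l, Tet2 and Tet1 in a fit that shares 1 estimate of spread over all stages. In a fit to that stage alone Dnmt3b and Tet1 did not pass. In neurons none of the 8 genes passed in the shared fit, and 4 did in a fit to neuron libraries alone. Levels are given as TMM-scaled CPM, and log2 changes come with their standard error (SE) and the false discovery rate (FDR) of edgeR's quasi-likelihood test. An FDR under 0.05 over all genes tested was called a change.

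Changes were common across the transcriptome, and the members' counts are given beside that background. In ESCs 5 of the 8 members were called, 2 higher and 3 lower in slow/slow cells, where 40.4% of all genes tested were called, 18.5% higher and 21.9% lower. In NPCs 4 of 8 were called, all higher, where 56.7% of all genes were called, 29.3% higher and 27.4% lower. In PSA-NCAM+ cells 5 of 8 were called, 2 higher and 3 lower, beside 56.7% of all genes (28.6% higher and 28.1% lower). When only the PSA-NCAM+ libraries entered the fit 3 of the 8 passed, beside 23.3% of all genes it tested. In neurons 0 of 8 were called by edgeR beside 51.9% of all genes (23.4% higher and 28.4% lower). There the count was also 0 at an unadjusted p under 0.05 and 0 with DESeq2, but 4 of the 8 passed when only the neuron libraries entered the fit, which called 76.3% of all genes it tested. The members' median log2 change was -0.15 in ESCs, 0.28 in NPCs, 0.02 at the PSA-NCAM+ stage and -0.17 in neurons, beside -0.02, 0.01, -0.01 and -0.06 over all genes tested.

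**Figure D1:**
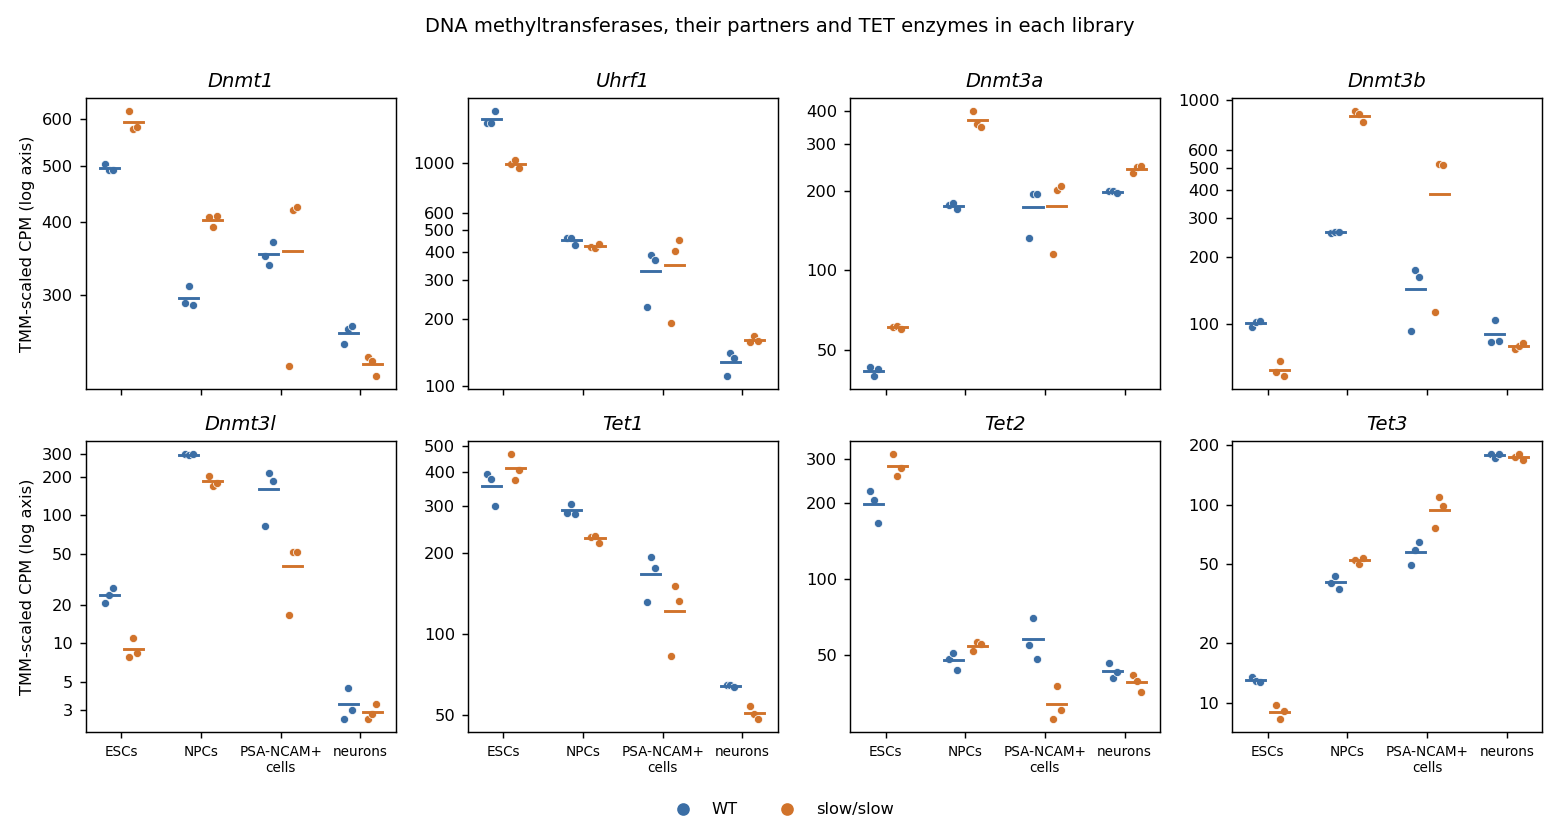
TMM-scaled CPM of each of the 8 genes (log axis, a separate range for each gene) at the 4 stages, with 1 point per library and a line at the mean of 3 replicates, WT in blue and slow/slow in orange. Dnmt3b in slow/slow NPCs lay between 797.6 and 898.3 CPM, above every other group, and in PSA-NCAM+ cells replicate 1 lay well below replicates 2 and 3 for Dnmt3b in both genotypes.

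Dnmt1, the maintenance methyltransferase, had the highest level per length of the 3 catalytic methyltransferases in WT ESCs, where the authors' mean RPKM (reads per kilobase of length, scaled to library size) was 87.72 for Dnmt1, 21.83 for Dnmt3b and 3.96 for Dnmt3a. Its CPM was 503.5, 490.9 and 492.1 in WT and 620.4, 577.2 and 581.2 in slow/slow ESCs. Those groups did not overlap, but the log2 change of 0.26 (SE 0.14) missed the threshold (FDR 0.152). In NPCs the 3 WT libraries held 290.4, 310.7 and 288.8 CPM and the 3 slow/slow libraries 407.8, 393.2 and 409.2. Every slow/slow NPC library was above every WT library, a log2 change of 0.44 (SE 0.14, FDR 0.0114), or 1.36-fold. In PSA-NCAM+ cells Dnmt1 was at 349.9, 337.7 and 369.4 CPM in WT and at 226.5, 419.7 and 425.3 in slow/slow cells. The low value was that of replicate 1, and the groups overlapped (log2 change 0.02, FDR 0.914). Without replicate 1 of both genotypes the change was 0.26 (SE 0.07) and passed the threshold (FDR 0.00117), as it did without slow/slow replicate 1 alone (0.29, FDR 0.000286). In neurons the values were 247.9, 262.3 and 265.2 in WT and 235.1, 231.8 and 218.2 in slow/slow cells. The groups did not overlap, and the log2 change was -0.18 (SE 0.14, FDR 0.3).

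Along WT differentiation Dnmt1 was highest in ESCs, then in PSA-NCAM+ cells, NPCs and neurons, with no overlap between neighbours in that order. It fell 1.67-fold from ESCs to NPCs (log2 change -0.74, FDR 0.000124). The WT step from NPCs to PSA-NCAM+ cells, 0.25, did not pass (FDR 0.167). Without replicate 1 of both genotypes that step was also 0.25 and passed (FDR 0.00087). The WT difference between neurons and NPCs, -0.20, did not pass (FDR 0.199), whereas in slow/slow cells Dnmt1 fell 1.77-fold over the same step (log2 change -0.82, FDR 2.76e-05). Slow/slow PSA-NCAM+ cells overlapped both slow/slow NPCs and slow/slow neurons. The 10 markers of DNA replication and division summed to 3610 to 3700 CPM in WT and 4660 to 4770 in slow/slow NPCs, and to 2190 to 3300 and 2240 to 4830 in PSA-NCAM+ cells, where the lowest value of each genotype was replicate 1. The part of these levels in the Dnmt1 result was not tested.

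Uhrf1, which brings Dnmt1 to replicated DNA, was the most abundant of the 8 genes per length in WT ESCs, at an authors' mean RPKM of 411.77. Its CPM was 1507.7, 1515.8 and 1715.0 in WT and 994.1, 1036.1 and 955.5 in slow/slow ESCs, with no overlap. The log2 change was -0.67 (SE 0.21, FDR 0.0164), 1.59-fold lower in slow/slow cells, and the call was lost without WT replicate 3 (-0.59, FDR 0.0613) or slow/slow replicate 3 (-0.62, FDR 0.0561). At NPCs the genotypes overlapped, with 460.2, 464.2 and 431.1 CPM in WT and 419.0, 416.9 and 434.8 in slow/slow cells (log2 change -0.09, FDR 0.727). PSA-NCAM+ cells also overlapped, with 226.9, 389.2 and 369.9 in WT and 191.8, 405.4 and 454.5 in slow/slow cells. The log2 change there was 0.09 (FDR 0.726), and without replicate 1 of both genotypes it was 0.18 (FDR 0.0739). Without slow/slow replicate 1 alone, which keeps the low WT replicate 1, it was 0.41 and passed (FDR 0.0156). In neurons Uhrf1 was at 111.2, 141.2 and 133.4 CPM in WT and 158.3, 167.2 and 159.8 in slow/slow cells. The groups did not overlap, and the log2 change was 0.33 (SE 0.21, FDR 0.199).

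With stage Uhrf1 fell 3.5-fold from WT ESCs to WT NPCs (log2 change -1.81, FDR 4.7e-07) and 3.51-fold from WT NPCs to WT neurons (log2 change -1.81, FDR 1.86e-07). In slow/slow cells the same steps were 2.35-fold and 2.62-fold lower. The steps from NPCs to PSA-NCAM+ cells, -0.46 in WT and -0.27 in slow/slow cells on the log2 scale, did not pass the test. Without replicate 1 of both genotypes the WT step was -0.25 and passed (FDR 0.0115).

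Dnmt3a, a de novo methyltransferase also known for its role in neurons, rose in slow/slow ESCs and NPCs. Its CPM was 42.9, 39.8 and 42.1 in WT and 60.9, 61.6 and 59.8 in slow/slow ESCs, a log2 change of 0.55 (SE 0.16, FDR 0.00861), or 1.46-fold. In NPCs it was 176.4, 179.9 and 169.7 in WT against 400.8, 356.9 and 348.7 in slow/slow cells. The lowest slow/slow NPC library was well above the highest WT library (log2 change 1.07, SE 0.16, FDR 1.06e-05). In PSA-NCAM+ cells the genotypes overlapped, with 132.6, 195.0 and 193.6 CPM in WT and 115.0, 201.9 and 208.2 in slow/slow cells (log2 change 0.01, FDR 0.955). Without replicate 1 of both genotypes the change was 0.08 (FDR 0.29), and without slow/slow replicate 1 alone it was 0.26 and passed (FDR 0.0345). In neurons Dnmt3a was at 199.6, 199.1 and 195.7 CPM in WT and 233.3, 246.0 and 248.4 in slow/slow cells, which did not overlap (log2 change 0.29, SE 0.15, FDR 0.121). That difference passed with upper-quartile scaling (0.43, FDR 0.0248) and in the fit to neuron libraries alone (0.37, FDR 8.71e-06).

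The order of stages differed between genotypes for Dnmt3a. In WT cells it rose 4.22-fold from ESCs to NPCs (log2 change 2.08, FDR 9.71e-10), and NPCs, PSA-NCAM+ cells and neurons then lay within 132.6 to 199.6 CPM, with log2 differences from NPCs of -0.01 and 0.18 that did not pass. Without replicate 1 of both PSA-NCAM+ groups the first of these was 0.15 and passed (FDR 0.0379). In slow/slow cells Dnmt3a rose 6.07-fold to its highest level in NPCs and then fell, 2.11-fold to PSA-NCAM+ cells (FDR 2.55e-05) and 1.52-fold to neurons (FDR 0.00156). The difference between the genotypes in these steps was itself tested. It was -1.06 on the log2 scale (SE 0.22, FDR 0.00322) for PSA-NCAM+ cells against NPCs, and -0.78 (SE 0.22, FDR 0.00513) for neurons against NPCs. The first of these did not pass when only the 4 groups concerned were fitted (-1.05, FDR 0.0656).

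Dnmt3b, the other de novo methyltransferase, showed the largest rise of the 8 genes in slow/slow cells at any stage. Its CPM in NPCs was 255.9, 259.7 and 258.4 in WT and 898.3, 872.6 and 797.6 in slow/slow cells. The groups were far apart, with a log2 change of 1.73 (SE 0.34, FDR 0.000215), or 3.32-fold. In ESCs the order was the opposite, with 97.3, 102.1 and 103.5 CPM in WT and 61.0, 68.6 and 58.8 in slow/slow cells. Those groups did not overlap, but the log2 change of -0.68 (SE 0.33) did not pass (FDR 0.107), except in a fit to ESC libraries alone (-0.67, SE 0.07, FDR 1.71e-06). Dnmt3b in PSA-NCAM+ cells was at 93.5, 174.3 and 163.1 CPM in WT and at 113.5, 520.7 and 513.0 in slow/slow cells. The slow/slow replicate 1 lay among the WT libraries and replicates 2 and 3 lay far above them. The log2 change of 1.41 (SE 0.33, FDR 0.00125) became 1.62 (SE 0.09, FDR 8.32e-14) without replicate 1 of both genotypes, and it did not pass in a fit to PSA-NCAM+ libraries alone (1.38, FDR 0.119). In neurons the values were 83.0, 104.6 and 84.5 in WT and 77.2, 80.3 and 82.3 in slow/slow cells (log2 change -0.18, FDR 0.667).

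From ESCs to NPCs Dnmt3b rose 2.55-fold in WT (log2 change 1.35, FDR 0.00138) and 13.6-fold in slow/slow cells (log2 change 3.77, FDR 1.99e-08). The difference between those steps was 2.42 (SE 0.47, FDR 0.000864). From NPCs to neurons it fell 2.84-fold in WT and 10.7-fold in slow/slow cells, steps that differed by -1.91 (SE 0.47, FDR 0.00176). The WT decrease from NPCs to PSA-NCAM+ cells (log2 change -0.85, FDR 0.0455) was not called without any 1 of the WT NPC libraries, nor without WT PSA-NCAM+ replicate 1 (-0.61, FDR 0.184) or replicate 3 (-0.94, FDR 0.0579). It was called without replicate 1 of both genotypes. The slow/slow decrease over that step (-1.16, FDR 0.00827) was not called in a fit to those 2 groups alone (FDR 0.162). By the authors' mean RPKM Dnmt3b passed Dnmt1 in NPCs, narrowly in WT cells (62.94 against 59.24) and clearly in slow/slow cells (202.67 against 78.2).

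Dnmt3l, the catalytically inactive cofactor, was highest in NPCs, and it fell in slow/slow ESCs and PSA-NCAM+ cells. In ESCs its CPM was 20.7, 23.9 and 27.2 in WT and 7.8, 11.0 and 8.5 in slow/slow cells, 2.63-fold lower (log2 change -1.39, SE 0.34, FDR 0.0027). In NPCs it was 301.7, 293.9 and 298.5 in WT and 204.0, 168.6 and 180.2 in slow/slow cells. All slow/slow NPC libraries were below all WT libraries, yet the log2 change of -0.69 (SE 0.32) did not pass (FDR 0.0714). It did pass with DESeq2 (-0.73, FDR 0.044) and in a fit to NPC libraries alone (-0.71, FDR 1.37e-07). PSA-NCAM+ cells held 82.6, 212.7 and 184.7 CPM in WT and 16.6, 52.0 and 51.6 in slow/slow cells. Replicate 1 was the lowest of each group, and the groups did not overlap (log2 change -1.99, SE 0.33, FDR 4.15e-05), a 3.98-fold difference that was -1.94 without replicate 1 of both (FDR 1.59e-11). In neurons it was at 2.6, 4.5 and 3.0 CPM in WT and 2.6, 2.8 and 3.3 in slow/slow cells (log2 change -0.21, FDR 0.668).

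Dnmt3l had the widest range of the 8 genes across stages. It rose 12.4-fold from WT ESCs to WT NPCs (FDR 2.61e-08) and was 89.2-fold lower in WT neurons than in WT NPCs (FDR 9.21e-12). The slow/slow steps were 20.2-fold up and 63.6-fold down. From NPCs to PSA-NCAM+ cells it fell 4.58-fold in slow/slow cells. The WT difference there (-0.90, FDR 0.0308) was not called without WT PSA-NCAM+ replicate 1 (-0.58, FDR 0.14) or without any 1 of the WT NPC libraries, nor in a fit to those 2 groups alone (FDR 0.0614). It was called without replicate 1 of both genotypes. The WT and slow/slow steps differed by -1.3 (SE 0.45), which did not pass (FDR 0.0606). The difference passed in 2 of 6 alternative fits, DESeq2 (-1.3, FDR 0.0281) and the replicate number as a block (-1.33, FDR 0.0272). Without replicate 1 of both genotypes it was -1.25 and also passed (FDR 1.23e-05). Dnmt3l (chr10:78041947-78063622 in GRCm38) overlaps Aire on the other strand, and whether counting used strand was not stated, so reads of the overlap cannot be assigned. The annotated antisense transcripts Dnmt3aos, Dnmt3bos, Gm42567 and B230319C09Rik likewise overlap Dnmt3a, Dnmt3b, Tet2 and Tet3.

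**Figure D2:**
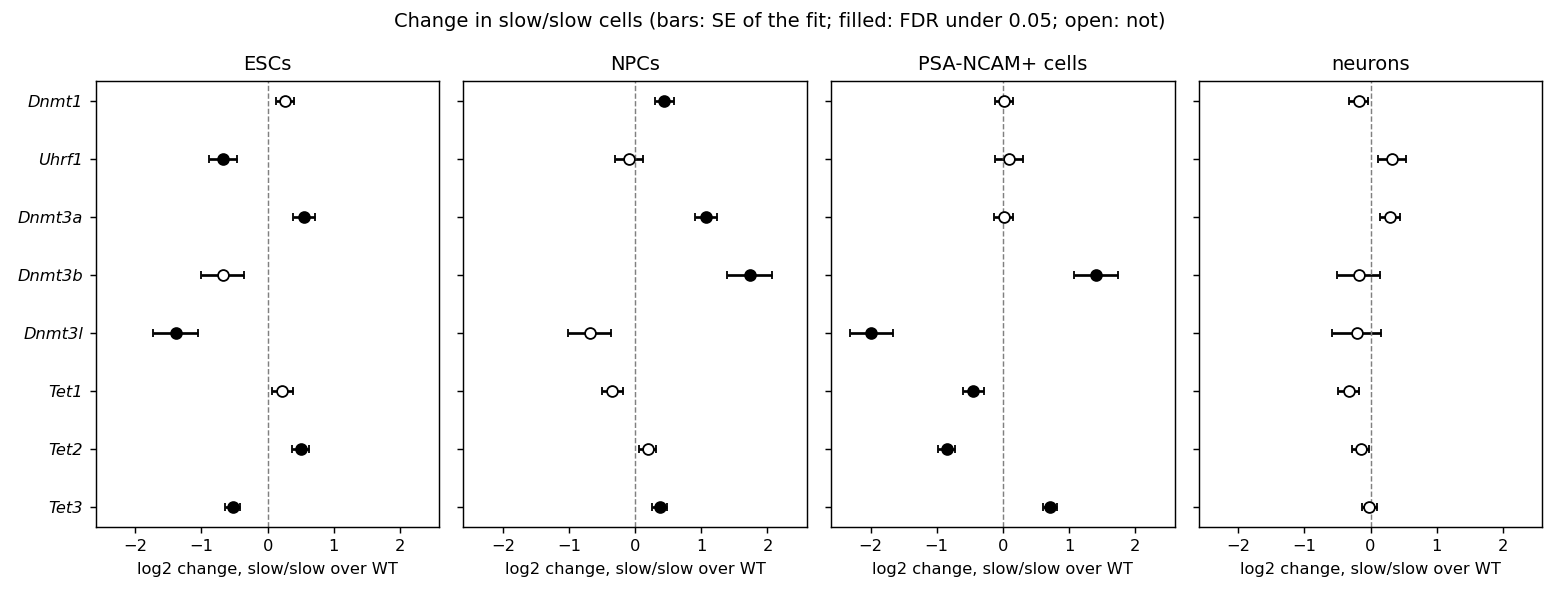
Log2 change of each of the 8 genes in slow/slow over WT cells at the 4 stages, with bars for the SE of the fit and filled points for an FDR under 0.05. Dnmt3b lay at -0.68, 1.73, 1.41 and -0.18 in ESCs, NPCs, PSA-NCAM+ cells and neurons, and Dnmt3l was below 0 at every stage, from -1.99 to -0.21.

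Tet1 was the most abundant TET gene per length in WT ESCs, with an authors' mean RPKM of 23.7 beside 20.17 for Tet2 and 1.11 for Tet3. Its CPM in ESCs was 392.1, 377.0 and 298.9 in WT and 467.4, 372.5 and 405.8 in slow/slow cells, which overlapped (log2 change 0.22, FDR 0.289). In NPCs it was 280.5, 305.3 and 280.4 in WT and 229.7, 232.1 and 218.4 in slow/slow cells. Those groups did not overlap, and the log2 change of -0.35 (SE 0.16, FDR 0.0711) passed only with RLE or upper-quartile scaling, DESeq2 or the fit to NPC libraries (the lowest FDR was 1.62e-05). PSA-NCAM+ cells held 132.0, 192.9 and 176.2 CPM in WT and 82.9, 151.1 and 132.2 in slow/slow cells. The ranges overlapped, but the slow/slow library was lower in 3 of 3 pairs with the same replicate number. Slow/slow replicates 2 and 3 were each below both WT replicates 2 and 3, so that order does not show that the numbers pair them. The called change of -0.45 (SE 0.16, FDR 0.0224) was also called with that number as a block (-0.45, FDR 0.0219) and without replicate 1 of both genotypes (-0.38, FDR 0.00249). It was not called without slow/slow replicate 1 (-0.21, FDR 0.144), WT replicate 2 (-0.31, FDR 0.135) or WT replicate 3 (-0.38, FDR 0.0827), nor in the fit to PSA-NCAM+ libraries alone (-0.48, FDR 0.208). In neurons Tet1 was at 64.8, 64.4 and 63.3 CPM in WT and 54.2, 50.3 and 48.3 in slow/slow cells, with no overlap and no call (log2 change -0.33, SE 0.16, FDR 0.0919).

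Tet1 fell at the later steps in both genotypes. It fell 4.5-fold from WT NPCs to WT neurons (FDR 2.07e-10) and 4.45-fold in slow/slow cells, and the decrease from NPCs to PSA-NCAM+ cells was called in both genotypes (log2 changes -0.79 and -0.89). From ESCs to NPCs it fell 1.83-fold in slow/slow cells (log2 change -0.87, FDR 9.54e-05), while the WT difference of -0.30 did not pass (FDR 0.105).

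Tet2 changed in opposite directions in slow/slow ESCs and slow/slow PSA-NCAM+ cells. In ESCs its CPM was 224.3, 206.2 and 166.5 in WT and 313.4, 255.8 and 276.3 in slow/slow cells, 1.42-fold higher (log2 change 0.50, SE 0.13, FDR 0.00476). In PSA-NCAM+ cells it was 55.0, 70.4 and 48.2 in WT and 28.0, 37.8 and 30.4 in slow/slow cells, 1.8-fold lower (log2 change -0.85, SE 0.13, FDR 2.34e-05). Neither pair of groups overlapped, and without replicate 1 of both genotypes the second change was -0.79 (FDR 2.9e-05). In NPCs, at 48.5, 51.1 and 43.8 CPM in WT and 51.9, 56.1 and 55.4 in slow/slow cells, the log2 change was 0.19 (FDR 0.239). In neurons, at 46.4, 40.6 and 43.1 in WT and 41.7, 39.4 and 35.8 in slow/slow cells, it was -0.15 (FDR 0.356).

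Most of the stage change of Tet2 lay between ESCs and NPCs, where it fell 4.16-fold in WT (FDR 1e-10) and 5.17-fold in slow/slow cells. WT NPCs, PSA-NCAM+ cells and neurons then lay within 40.6 to 70.4 CPM. From NPCs to PSA-NCAM+ cells the WT difference was 0.28 (FDR 0.106) and slow/slow cells fell by 0.76 on the log2 scale, and these steps differed by -1.04 (SE 0.19, FDR 0.00126). Without replicate 1 of both PSA-NCAM+ groups the WT difference was 0.31 and passed (FDR 0.0467).

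Tet3, the TET enzyme that dominates in neurons, rose from ESCs to NPCs and from NPCs to each later stage in both genotypes. In ESCs its CPM was 13.5, 12.9 and 12.6 in WT and 9.7, 8.3 and 9.0 in slow/slow cells, 1.44-fold lower (log2 change -0.53, SE 0.11, FDR 0.000835). In NPCs it was 40.2, 43.5 and 37.6 in WT and 52.8, 50.4 and 53.8 in slow/slow cells, 1.29-fold higher (log2 change 0.37, SE 0.11, FDR 0.00577). No library of one genotype lay within the range of the other at either stage. PSA-NCAM+ cells held 49.8, 59.1 and 64.8 CPM in WT and 76.0, 109.2 and 98.0 in slow/slow cells, 1.63-fold higher without overlap (log2 change 0.71, SE 0.11, FDR 1.28e-05). Without replicate 1 of both genotypes that change was 0.74 (FDR 6.91e-09). In neurons the genotypes overlapped, at 180.4, 171.8 and 179.9 CPM in WT and 174.3, 180.4 and 168.9 in slow/slow cells (log2 change -0.02, FDR 0.871).

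From ESCs to NPCs Tet3 rose 3.11-fold in WT (FDR 1.13e-10) and 5.8-fold in slow/slow cells, steps that differed by 0.90 (SE 0.15, FDR 0.000282). The steps from NPCs to PSA-NCAM+ cells differed by 0.37 without replicate 1 of both genotypes (FDR 0.00647), a difference that did not pass with all libraries (FDR 0.142). From NPCs to neurons it rose 4.39-fold in WT (FDR 3.2e-13) and 3.34-fold in slow/slow cells. The difference of -0.39 between these steps (SE 0.15, FDR 0.031) did not pass with upper-quartile scaling (-0.21, FDR 0.253). It was called in only 4 of 12 fits that left out 1 library, with an FDR of up to 0.0886. In neurons Tet3 was the most abundant TET gene per length, with an authors' mean RPKM of 16.3 in WT and 17.61 in slow/slow cells, where Tet1 had 4.61 and 4.02 and Tet2 4.74 and 4.68.

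Counted by stage, 7 of the 8 genes changed from WT ESCs to WT NPCs, 4 higher and 3 lower, beside 65.6% of all genes tested (34.0% higher and 31.6% lower). From WT NPCs 4 changed to PSA-NCAM+ cells, 1 higher and 3 lower, beside 41.3% (21.8% and 19.5%), and 5 changed to neurons, 1 higher and 4 lower, beside 80.2% (41.4% and 38.9%). In slow/slow cells 8 changed from ESCs to NPCs, 4 in each direction, beside 62.3% (33.9% and 28.4%). From slow/slow NPCs 6 changed to PSA-NCAM+ cells, 1 higher and 5 lower, beside 42.3% (22.5% and 19.8%), and 8 changed to neurons, 1 higher and 7 lower, beside 75.0% (38.4% and 36.6%). The gene that rose in all of these later steps was Tet3. The WT and the slow/slow step were compared directly for each gene, and 2 members differed from ESCs to NPCs, both positive (24.6% of all genes, 13.6% positive). Another 2 differed from NPCs to PSA-NCAM+ cells, both negative (14.6%, 7.04% negative), and 4 from NPCs to neurons, all negative (55.1%, 30.4% negative). Those 4 were Dnmt1 (-0.62, SE 0.20, FDR 0.0123), Dnmt3a, Dnmt3b and Tet3. The Dnmt1 difference did not pass with upper-quartile scaling (-0.44, FDR 0.0654), a scaling that shifted the median of all genes in this comparison by 0.18.

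Splicing is given as percent spliced in (PSI), the share of informative reads that include an exon, intron or longer site. An event was called changed when mean PSI differed by over 10 points between groups (dPSI) and the probability of a difference with that sign exceeded 0.95, which is how the study's threshold, stated in another form, was read here. Of the 206 events, 7 were followed. They were the 5 called in at least 1 of 10 comparisons and, among the rest, those of intermediate inclusion covered in all samples. 4 of the 5 lie in Dnmt3b and 1 in Dnmt1. Among all member events tested, 2 of 157 changed between genotypes in NPCs (0.886% of all events tested), 1 of 156 at the PSA-NCAM+ stage (0.267%) and 1 of 139 in neurons (0.887%). In ESCs 0 of 140 changed (0.199% of all events), as did 0 with limma on the reads, where 1 passed at an unadjusted p under 0.05. By stage in WT cells 1 of 144 changed from ESCs to NPCs (0.779%), 1 of 159 from NPCs to PSA-NCAM+ cells (0.455%) and 4 of 146 from NPCs to neurons (2.32%). The matching slow/slow counts were 0 of 143 (0.243%), 0 of 154 (0.296%) and 2 of 130 (1.07%), and limma found 0 for the ESC to NPC and the NPC to PSA-NCAM+ steps, also at an unadjusted p under 0.05. No event of Dnmt3l or Tet3 passed the coverage filters in all 24 samples.

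The largest genotype difference was in a non-coding exon of 115 nt near the start of Dnmt3b, at chr2:153476521-153476635 in mm9. An exon of that length is exon 2 of 5 annotated Dnmt3b transcripts and lies upstream of the coding sequence. In NPCs its PSI was 7.6, 12.6 and 11.7 in WT and 31.4, 32.4 and 32.0 in slow/slow cells. Every slow/slow NPC library included it more often, a dPSI of 21.3 with probability 1.0 (limma FDR 0.00118). In neurons the order was reversed, with 25.4, 25.7 and 26.9 in WT and 16, 17.1 and 12.4 in slow/slow cells, a dPSI of -10.9 (probability 0.968, limma FDR 0.0125). That call was lost without slow/slow replicate 3, where the dPSI was -9.5. In ESCs PSI was 28.3, 27.2 and 23.1 in WT and 30.2, 41.6 and 50.9 in slow/slow cells. The slow/slow libraries were spread widely and the dPSI of 14.7 was not called (probability 0.909), although it was without slow/slow replicate 1 (20.1). In PSA-NCAM+ cells, at 14.3, 20.6 and 21.8 in WT and 18.3, 28.8 and 30.0 in slow/slow cells, the dPSI of 6.8 was below the threshold, and it was 8.2 without replicate 1 of both and 10.5, which was called, without slow/slow replicate 1 alone.

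Along the stages WT cells and slow/slow cells took different courses at this exon. In WT cells mean PSI fell from 26.2 in ESCs to 10.6 in NPCs (dPSI -15.5) and returned to 26.0 in neurons (dPSI 15.4 from NPCs). In slow/slow cells it was 40.9 in ESCs and 31.9 in NPCs, a dPSI of -9.0 that was called only without slow/slow ESC replicate 1 (-14.4), and it fell to 15.2 in neurons (dPSI -16.8 from NPCs). Reads behind each PSI ranged from 64 to 93 per library in slow/slow ESCs to between 759 and 1712 in slow/slow NPCs, so the ESC values are the less precise. The same exon has 2 donor sites, 37 and 115 nt from its start. Use of the longer form was 62.5, 83.7 and 83.3% in WT and 94.9, 95.7 and 97.8% in slow/slow NPCs, a called dPSI of 19.7 (probability 0.987) without overlap. It rested on 24 to 59 reads per library in WT NPCs. In PSA-NCAM+ cells, at 78.6, 82.6 and 86.6% in WT and 92.0, 94.8 and 96.8% in slow/slow cells, the groups did not overlap and the dPSI of 11.9 was not called (probability 0.931). It was called without replicate 1 of both genotypes (11.2, probability 0.996), without slow/slow replicate 1 alone (13.2) or WT replicate 3 alone (13.9), and with limma when the replicate number was a block (FDR 0.0357).

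The coding exon of 60 nt in Dnmt3b, printed above, changed mainly with stage. Its deposited position is chr2:153496585-153496644 in mm9. Inclusion was near complete in ESCs, at 96.4, 96.5 and 95.0 in WT and 96.4, 91.9 and 100.0 in slow/slow cells, and in NPCs, at 94.2, 92.3 and 93.0 in WT and 97.4, 96.6 and 97.5 in slow/slow cells. The NPC groups did not overlap, but the dPSI of 4.0 was below 10 points (limma FDR 0.00596). In PSA-NCAM+ cells PSI was 64.8, 82.1 and 74.8 in WT and 81.9, 93.1 and 93.5 in slow/slow cells. Replicate 1 was the lowest of each genotype and the ranges overlapped slightly, with a dPSI of 15.6 (probability 0.954). That call was lost in 4 of 6 fits that left out 1 library. Without replicate 1 of both genotypes the dPSI was 14.9 (probability 1.0). With limma the FDR was 0.451, and it was 0.0237 with the replicate number as a block. Same-numbered libraries of this stage were not shown to be pairs beyond replicate 1. In neurons, at 87.1, 83.2 and 77.7 in WT and 80.4, 74.4 and 88.9 in slow/slow cells, the genotypes overlapped (dPSI -1.4). Skipping thus rose from NPCs to neurons in both genotypes, with a dPSI of -10.5 in WT and -15.9 in slow/slow cells. The WT call was lost without WT neuron replicate 3 (-8.0) or WT NPC replicate 1. From NPCs to PSA-NCAM+ cells the dPSI was -19.2 in WT, which limma did not call (FDR 0.161), and -7.6 in slow/slow cells, below the threshold.

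**Figure D3:**
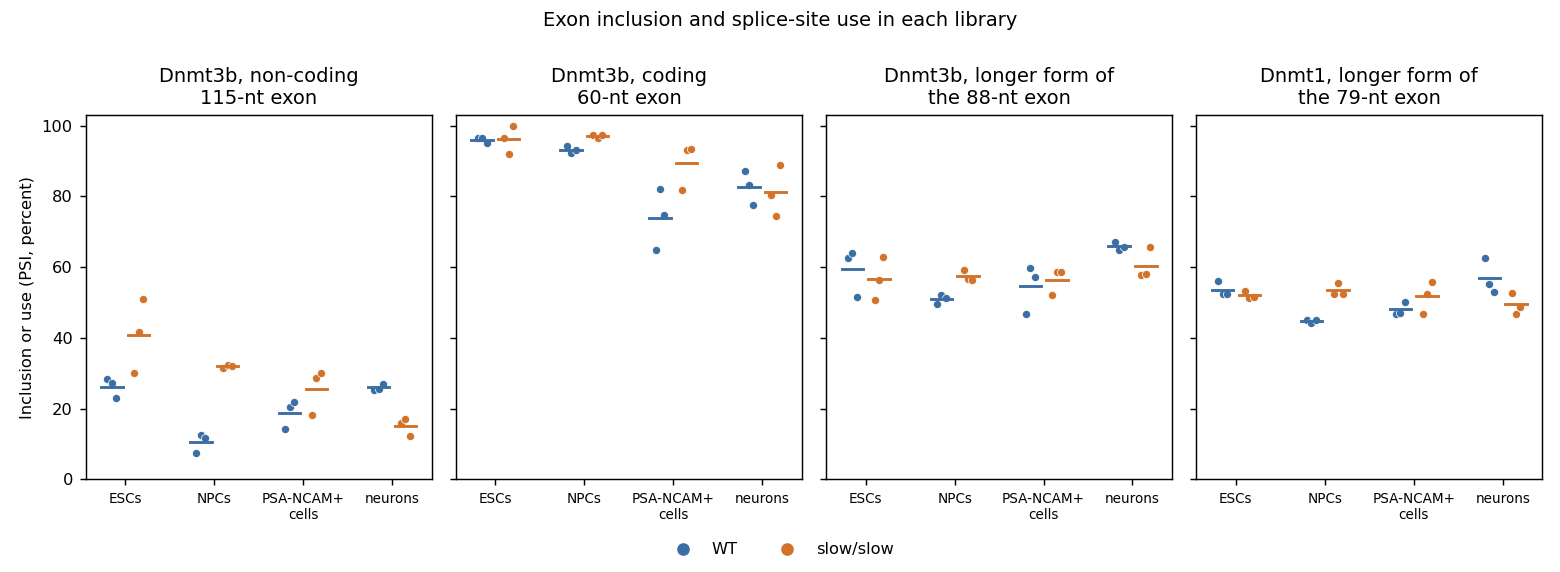
PSI (percent, axis from 0 to just over 100) of splicing events of Dnmt3b and Dnmt1 at the 4 stages, with 1 point per library and a line at the mean of 3 replicates, WT in blue and slow/slow in orange. For the 115-nt exon of Dnmt3b the slow/slow points lay above the WT points in NPCs (31.4 to 32.4 against 7.6 to 12.6) and below them in neurons (12.4 to 17.1 against 25.4 to 26.9).

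The paired acceptors that differ by 3 nt moved with stage in WT cells. In Dnmt3b mean use of the longer form, the one that keeps the CAG in capitals, was 59.4 in WT ESCs, 51.0 in WT NPCs and 66.0 in WT neurons. The step from NPCs to neurons was called (dPSI 14.9, limma FDR 0.000773), and slow/slow cells, at 57.4 and 60.4, had a dPSI of 3.0 that was not. In Dnmt1 the longer form made up 53.7 in WT ESCs, 44.8 in WT NPCs and 56.9 in WT neurons. The last step was called (dPSI 12.1, probability 0.982, limma FDR 0.0298) but lost without WT neuron replicate 1 (9.3), and in slow/slow cells it was -4.0, from 53.5 to 49.5. Between genotypes neither acceptor passed 10 points at any stage. The closest was Dnmt1 in NPCs, with a dPSI of 8.7, no overlap and a limma FDR of 0.0165. The difference between the WT and the slow/slow steps was not tested for splicing.

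The other 2 events followed did not change in any of the 10 comparisons. A Tet1 exon of 91 nt (chr10:62296286-62296376 in mm9) had mean PSI from 84.9 to 97.2 and a largest dPSI of 9.0 in size. A Dnmt1 intron of 263 nt (chr9:20716753-20717015 in mm9) was retained at 2.8 to 11.3% on average, highest in WT PSA-NCAM+ cells.

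Genes that work with the 8 were counted by list, to be read beside the 40.4%, 56.7%, 56.7% and 51.9% of all genes called in ESCs, NPCs, PSA-NCAM+ cells and neurons. Among 8 partners and regulators, 0 passed in ESCs with edgeR (2 at an unadjusted p under 0.05 and 1 with DESeq2), 4 were higher and 4 lower in slow/slow NPCs, 2 higher and 3 lower in PSA-NCAM+ cells, and 2 higher in neurons. Prdm14, a repressor of de novo methyltransferase genes in naive cells, was at 3.15 ± 0.444 CPM in slow/slow and 16.6 ± 0.67 in WT NPCs (SD, n = 3; log2 change -2.40, FDR 8.48e-07 with edgeR). Dppa3, which counters Uhrf1, was at 0.773 ± 0.0514 and 3.92 ± 0.626 CPM in the same groups (log2 change -2.34, FDR 9.97e-08). Zfp57, which keeps methylation at imprinted loci, fell (log2 change -0.88, FDR 9.44e-06), and Cdca7, an activator of the remodeler Hells, rose (log2 change 0.57, FDR 0.0311). In PSA-NCAM+ cells these 4 changed in the same directions, by -2.75, -2.13, -1.21 and 1.10.

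Of 8 genes for readers of methylated DNA, 0 passed in ESCs with edgeR (1 at an unadjusted p under 0.05, 0 with DESeq2), 3 were higher and 3 lower in NPCs, 1 higher and 2 lower in PSA-NCAM+ cells, and 1 lower in neurons. In NPCs Zbtb33 and Mbd3 rose (0.68 and 0.66) and Zbtb4 fell (-0.95), and in PSA-NCAM+ cells Mbd2 fell (-0.81). Of 12 genes of demethylation and repair, 4 were higher and 2 lower in ESCs, 5 and 4 in NPCs, 5 and 2 at the PSA-NCAM+ stage, and 7 and 0 in neurons. Neil3, a DNA glycosylase active in dividing cells, was at 23.7 ± 1.7 CPM in slow/slow and 2.26 ± 0.234 in WT neurons (SD, n = 3; log2 change 3.39, FDR 4.46e-13 with edgeR). Neil2, a glycosylase, and Gadd45g, a stress-response gene linked to demethylation, also rose in neurons (2.83 and 1.88), while Gadd45b fell in NPCs (-2.20). The 10 replication and division markers summed to 1160 to 1480 CPM in WT and 1780 to 1880 in slow/slow neurons, and their part in the Neil3 result was not tested.

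Of 7 genes that supply methyl groups or 2-oxoglutarate, 1 was higher and 2 lower in slow/slow ESCs, 5 and 2 in NPCs, 4 and 0 at the PSA-NCAM+ stage, and 1 and 2 in neurons. Mat2a, which makes the methyl donor S-adenosylmethionine, was at 455 ± 15.5 CPM in slow/slow and 188 ± 8.19 in WT NPCs (SD, n = 3; log2 change 1.27, FDR 2.7e-08 with edgeR). Idh2, a mitochondrial isocitrate dehydrogenase that makes 2-oxoglutarate, fell by 1.16 on the log2 scale in NPCs. Of 10 germline genes known to be silenced by promoter methylation 9 were tested, and 2 were higher and 4 lower in slow/slow ESCs, 2 and 4 in NPCs, 1 and 6 at the PSA-NCAM+ stage, and 4 and 2 in neurons. Their median log2 change was -0.52, -0.64, -1.63 and 0.44, beside -0.02, 0.01, -0.01 and -0.06 over all genes. Dazl, an RNA-binding germ cell gene, was at 2.11 ± 0.628 CPM in slow/slow and 23.0 ± 5.37 in WT PSA-NCAM+ cells (SD, n = 3; log2 change -3.46, FDR 4.06e-11 with edgeR). There Taf7l and Slc25a31 also fell (-2.68 and -2.18). Hormad1 fell in slow/slow ESCs (-2.25) and in PSA-NCAM+ cells (-1.63), and it was at 0.568 ± 0.171 CPM in slow/slow and 0.0757 ± 0.065 in WT neurons, both near the floor. From NPCs to neurons the median log2 change of the germline list was -4.71 in WT and -3.33 in slow/slow cells. The median over all genes in those steps was 0.04 and 0.03, so the germline values in neurons are those of genes at reduced levels. DNA methylation itself was not measured in these samples.

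**Figure D4:**
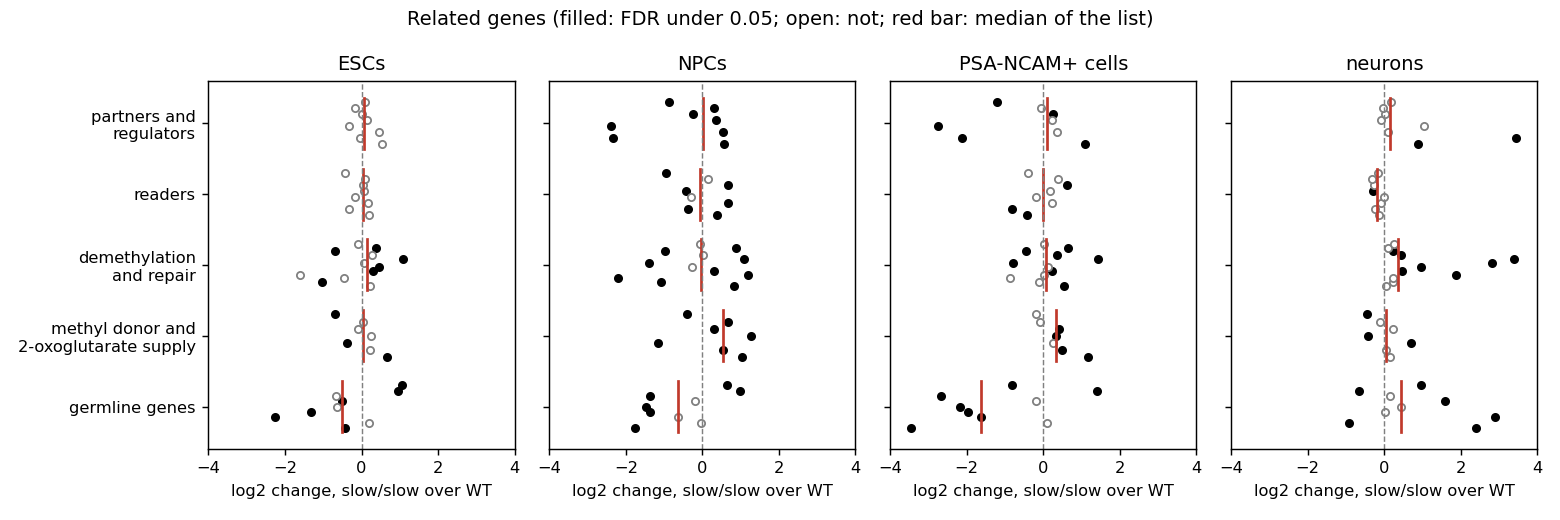
Log2 change in slow/slow over WT cells of each gene of the 5 related lists at the 4 stages, 1 point per gene, filled where the FDR was under 0.05, with a red bar at the median of the list. The germline genes had a median of -1.63 in PSA-NCAM+ cells and 0.44 in neurons, and the genes of demethylation and repair a median of 0.35 in neurons.

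For each member the genes with the most similar profile were found by Pearson correlation of log2 CPM over the 24 samples, as a description. The samples fall into 8 groups, so such values mostly reflect group means. Dnmt3b was most like Pfkl, AC119951.1 and Amn (r from 0.9424 to 0.9465), the lowest of the 8 sets, and Dnmt3a most like Pou3f1 (0.9627), Flywch2 and Ankrd6. Dnmt3l was closest to Icosl (0.9776), which starts 5679 bp downstream of it on the same strand, and to Prss50 and Mael. Dnmt1 was closest to Ddx20 (0.9743), Rbm19 and Umps, and Uhrf1 to Shq1 (0.9902), Cdc25a and Ppil5. Tet1 was closest to Msh6 (0.9937), Ranbp17 and Ints4, Tet2 to 1300001I01Rik (0.9741), Aplf and Pglyrp1, and Tet3 to Zfp362 (0.9943), Tspan12 and Bcl2.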

How the data were processed

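Poly(A)-selected RNA from 24 samples had been sequenced with a stranded kit, and the authors mapped reads to mm9 and processed them with vast-tools version 1 (bcl2fastq 2.17.1.14 and edgeR are named in the submitters' processing notes). Raw counts of reads for every gene in each sample were deposited by the authors, as were RPKM values that are their means per group, and, for each splicing event and sample, percent spliced in (PSI) with quality scores and corrected read numbers. Whether counting used strand was not stated. Deposited columns of the authors' own log2 fold changes and FDR values, and a second splicing table with 1 value per group and the authors' calls, were not used. All groups came from the labels, 0 columns holding single samples went unused, and no 2 libraries held identical values.

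The 1114 of 22667 genes without a value were left out. Counts were tested in R 4.3.3 with edgeR 4.0.16 (filterByExpr by group, TMM scaling, glmQLFit and glmQLFTest) in 1 model of 8 groups over 24 samples, with 16 residual degrees of freedom and a common biological coefficient of variation of 0.164. P-values were adjusted by the Benjamini-Hochberg method over 16627 genes, and SE was derived from the F statistic. Contrasts compared the genotypes at each stage, NPCs against ESCs and each later stage against NPCs within a genotype, and the differences between genotypes in those steps. WT and slow/slow comparisons at one stage share libraries with the stage steps, so they are not independent. Where the labels do not name separate cultures, p-values measure only the spread between these samples.

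Filters on splicing events followed the study (coverage and junction balance for exons, coverage for alternative splice sites, at least 15 reads and a balance p-value of at least 0.05 for introns) in all 6 samples compared. Beta posteriors of the replicates' reads were pooled following the vast-tools diff scheme. limma 3.58.1 on the logit of the reads, with 0.5 added, was an alternative. A PSI is only as precise as its reads.

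The members and lists were chosen with earlier results of these data known. All members are named. Splicing events were followed if called in a comparison or, among the rest, if intermediate and covered in all samples, and at most 4 genes of a related list were named, those with the largest log2 changes among the called. Sequences were read from GENCODE transcripts (GRCm38) and matched to the mm9 events by the lengths of consecutive exons, with no conversion of coordinates.

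Alternatives were RLE and upper-quartile scaling, no low-count filter, DESeq2 1.42.0, a fit to only the groups compared, the replicate number as a block, and leaving out each replicate. For splicing they were 15 points, at least 20 reads, limma with and without the block, and leaving out each replicate. Leaving out replicate 1 of both PSA-NCAM+ groups was added after the data were seen, and those libraries were picked for their low agreement. Same-numbered WT and slow/slow libraries deviated together in PSA-NCAM+ cells (r from 0.401 to 0.54), above 0.1 in every pair, and in no other comparison. There slow/slow replicate 2 with WT replicate 3 (0.241) and slow/slow replicate 3 with WT replicate 2 (0.399) also deviated together. Replicate 1 of each genotype deviated against replicates 2 and 3 of the other (r from -0.506 to -0.372). The numbers were taken to pair the samples there only, but which of replicates 2 and 3 pair was not established. The scripts were tested on simulated data.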

Additional observations from a re-analysis of the deposited data

Results flagged for a closer look

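The steps of differentiation differed between WT and slow/slow cells for 5 members, by edgeR's test of the difference itself (slow/slow step minus WT step, log2). From ESCs to NPCs they were Dnmt3b, with 2.42 (FDR 0.000864), and Tet3, with 0.90 (FDR 0.000282). From NPCs to PSA-NCAM+ cells they were Dnmt3a, with -1.06 (FDR 0.00322), and Tet2, with -1.04 (FDR 0.00126). From NPCs to neurons they were Dnmt1, with -0.62 (FDR 0.0123), Dnmt3a, with -0.78 (FDR 0.00513), Dnmt3b, with -1.91 (FDR 0.00176), and Tet3, with -0.39 (FDR 0.031). The share of all genes that differed was 24.6%, 14.6% and 55.1% in these 3 comparisons. The call of Dnmt3a for PSA-NCAM+ cells and those of Dnmt1 and Tet3 for neurons were lost in some alternative fits.

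The non-coding 115-nt exon of Dnmt3b was included more in slow/slow than in WT NPCs, with a dPSI of 21.3, and less in slow/slow than in WT neurons, with a dPSI of -10.9. Every slow/slow library lay above every WT library in the first and below in the second. The difference between the stages was not tested.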

How the results depend on the processing

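The counts of members changed moved by over 1.5 times mainly where only the groups compared entered the fit. They were then 7 for slow/slow against WT NPCs, 3 for PSA-NCAM+ cells, 4 for neurons and 8 for WT neurons against WT NPCs, where those fits called 75.8%, 23.3% and 76.3% of all genes they tested and, in the last, 14296 of 15892. They were 7, 1 and 7 for the differences between genotypes in the steps from ESCs to NPCs, NPCs to PSA-NCAM+ cells and NPCs to neurons, beside 48.2%, 4.2% and 72.5% of all genes. Over all genes that fit called 3641 (9424 in the fit to 24 samples) for slow/slow against WT PSA-NCAM+ cells, 2525 (7033) for slow/slow PSA-NCAM+ cells against NPCs, and 7534 (4091) and 668 (2421) for the first 2 of those differences. Without replicate 1 of both PSA-NCAM+ groups the second of those counts was 5200. Upper-quartile scaling gave 1 member in neurons and 2 for the difference from NPCs to neurons. It shifted the median of all genes by 0.14 between genotypes in neurons (share of calls higher 45.2% to 59.2%), by -0.27 for WT neurons against NPCs (51.6% to 42.3%) and by 0.18 for the difference (44.9% to 57.3%). No called member changed direction under any scaling.

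For splicing, member events changed in PSA-NCAM+ cells between genotypes were 0 with limma and 2 with the replicate block, and from WT NPCs to WT PSA-NCAM+ cells 0 with limma and 0 with the block. At 15 points they were 0 between genotypes in neurons and 1 for WT neurons against NPCs. The block, taken to pair the samples only in PSA-NCAM+ cells between genotypes, changed no other call of a member there (Dnmt3b 1.37, FDR 0.00105). In comparisons where the samples shared only a number, it added calls of Dnmt3l in NPCs (-0.68, FDR 0.041) and of Uhrf1 for WT PSA-NCAM+ cells against NPCs (-0.49, FDR 0.0434). It also added a call of Dnmt3l for the difference from NPCs to PSA-NCAM+ cells (-1.33, FDR 0.0272). That difference holds the PSA-NCAM+ libraries of both genotypes, taken as pairs, beside NPC libraries that shared only a number. The cause was not tested in any of these cases.

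Leaving out 1 replicate gave 2 to 4 members for WT PSA-NCAM+ cells against NPCs and 2 to 4 for the difference from NPCs to PSA-NCAM+ cells, where all genes called ranged from 1690 to 4248. Member splicing events ranged from 0 to 1 in ESCs, 0 to 3 in PSA-NCAM+ cells and 0 to 1 in neurons between genotypes, from 1 to 2 for WT NPCs against ESCs and for WT PSA-NCAM+ cells against NPCs, and from 0 to 1 for slow/slow NPCs against ESCs.

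Directions that reversed were those of values near 0 that had not been called. For slow/slow against WT PSA-NCAM+ cells Dnmt1 was -0.0089 with RLE scaling and DESeq2, -0.05 with upper-quartile scaling and -0.0045 with only these groups fitted, and Dnmt3a was -0.02, -0.06 and -0.02. Tet3 in neurons was 0.12 with upper-quartile scaling and 0.05 with only the groups fitted. For WT cells Dnmt3a was 0.0079 with RLE scaling and 0.008 with DESeq2 for PSA-NCAM+ cells against NPCs, and -0.1 with upper-quartile scaling for neurons against NPCs. Without replicate 1 of both PSA-NCAM+ groups, PSA-NCAM+ cells against NPCs gave 0.15 for Dnmt3a in WT (FDR 0.0379), 0.07 for Dnmt1 and 0.02 for Uhrf1 in slow/slow cells, and a dPSI of 0.7 for the Dnmt1 and 1.1 for the Dnmt3b acceptor in slow/slow cells.

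With 1 replicate left out, log2 changes that reversed ranged, between genotypes, from -0.09 to 0.29 (Dnmt1), -0.15 to 0.26 (Dnmt3a) and -0.11 to 0.41 (Uhrf1) in PSA-NCAM+ cells and from -0.37 to 0.04 (Dnmt3l) in neurons. For PSA-NCAM+ cells against NPCs they ranged from -0.09 to 0.15 (Dnmt3a, WT), -0.29 to 0.09 (Dnmt1, slow/slow) and -0.47 to 0.04 (Uhrf1, slow/slow), and for the difference in that step from -0.59 to 0.13 (Dnmt3b), -0.02 to 0.49 (Uhrf1) and -0.27 to 0.13 (Tet1). For the difference from NPCs to neurons Tet1 ranged from -0.03 to 0.05. The dPSI of the Dnmt3b acceptor ranged from -6.7 to 0.2 in ESCs and -2.2 to 4.3 in PSA-NCAM+ cells between genotypes, and from -2.2 to 3.9 and -2.2 to 1.1 in slow/slow NPCs against ESCs and PSA-NCAM+ cells against NPCs. That of the 60-nt exon ranged from -1.8 to 2.2 in ESCs and -5.3 to 2.0 in neurons between genotypes, and -1.1 to 3.0 for slow/slow NPCs against ESCs. That of the Tet1 exon ranged from -3.1 to 0.7 in PSA-NCAM+ cells, and that of the Dnmt3b donor from -0.9 to 9.7 for WT PSA-NCAM+ cells against NPCs. The Dnmt1 intron ranged from -1.0 to 0.6 in neurons, -0.6 to 2.0 for WT and -1.0 to 0.5 for slow/slow NPCs against ESCs, and -1.6 to 0.092 for slow/slow neurons against NPCs, and the Dnmt1 acceptor from -3.8 to 0.7 for slow/slow PSA-NCAM+ cells against NPCs.

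Few junction reads limit the splicing values of Dnmt3l and Tet3, which had no event covered in all samples, and of Dnmt3b in ESCs.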
